A study of Mus musculus with 4 samples.

Results

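The 7 genes described here are niche factors for blood progenitors, the signals and receptors through which skeletal cells hold blood stem and progenitor cells in bone. They were taken by symbol from the 31053 genes of the count matrices and comprise the secreted or membrane-bound ligands Cxcl12, Kitl, Il7 and Angpt1, the adhesion molecule Vcam1, and the receptors Lepr and Kit. Single-cell RNA sequencing had been carried out on bone tissue of wild-type C57BL/6J mice, 2 without treatment (Ctrl) and 2 after hindlimb unloading by tail suspension for 28 days (HLU), with 1 library per replicate. Age differs between sources, 8 weeks in the methods and postnatal day 28 in the design text. Tibiae and femurs were flushed to remove marrow and then digested with enzymes, so the blood cells in the libraries are those left after flushing. The comparison asks which cells of bone carried these transcripts with and without mechanical load.

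Cxcl12 is a chemokine that retains blood stem cells and B cell precursors through the receptor Cxcr4. Kitl, or stem cell factor, keeps progenitors and mast cells alive through Kit, Il7 drives B cell precursors, and Angpt1 signals to the receptor Tek on vessels and stem cells. In marrow the stromal cells around sinusoids, often marked by Lepr and Adipoq, are known as the main makers of Cxcl12 and Kitl, and Vcam1 anchors progenitors that carry the integrin Itga4.

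After filtering for 1000 to 40000 UMIs and at most 10% mitochondrial UMIs, the Ctrl libraries kept 7340 and 7635 cells while those of HLU kept 7757 and 9485. The kept cells held between 45347595 and 87604282 UMIs per library, and any pair of libraries shared 13 to 21 barcode sequences. Clusters were made without the 7 genes and named by marker genes, so that each name stands for cells that resemble that type. Libraries were aligned before clustering (integration). Without it, HLU replicate 2 was set apart in neutrophils and monocytes. It gave 885 of 935 cells of a neutrophil progenitor cluster and 1499 of 1528 of a monocyte cluster. Another progenitor cluster held 144 and 152 Ctrl cells, 315 of HLU replicate 1 and 8 of HLU replicate 2. The cause was not tested. At the resolution used for the main results no cluster was named osteoblast, endothelial, marrow stromal or blood stem cell by the marker rule. At the finer clustering 1 cluster of 266 cells was named osteoblast, with 105 and 103 cells in Ctrl and 56 and 2 in HLU. None was named marrow stromal there either. Skeletal stroma, the sum of the chondrocyte, mesenchymal stromal and tendon and connective tissue clusters, made up 53.5% and 39.4% of cells in Ctrl but 6.36% and 3.94% in HLU. One of its clusters, cluster 6, went against its chondrocyte name in HLU. There the chondrocyte, osteoblast and mesenchymal stromal markers held 0.170% and 0.0403% of its UMIs, and the neutrophil genes S100a8 and S100a9 held 13.9% and 10.8%. In Ctrl the same skeletal markers held 6.13% and 5.74% of the UMIs of cluster 6. The log2 fold changes of the members in skeletal stroma are therefore given with and without cluster 6. Stromal levels, shares of UMIs and changes of other genes include it. Leaving it out keeps 3684 and 2391 skeletal stromal cells in Ctrl but 103 and 202 in HLU.

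In whole libraries Cxcl12 and Lepr fell under HLU, while Kit and Angpt1 rose. These were 4 of the 7 genes, against 23.2% of the 15385 genes tested that passed the same threshold (edgeR quasi-likelihood test on UMIs summed per library, adjusted p under 0.05). Vcam1, Kitl and Il7 did not pass. The groups did not overlap for 6 of the 7 genes, Il7 being the exception, and for 66.9% of all genes tested. In a whole library, fewer cells of a type and less RNA per cell cannot be told apart.

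**Figure D1:**
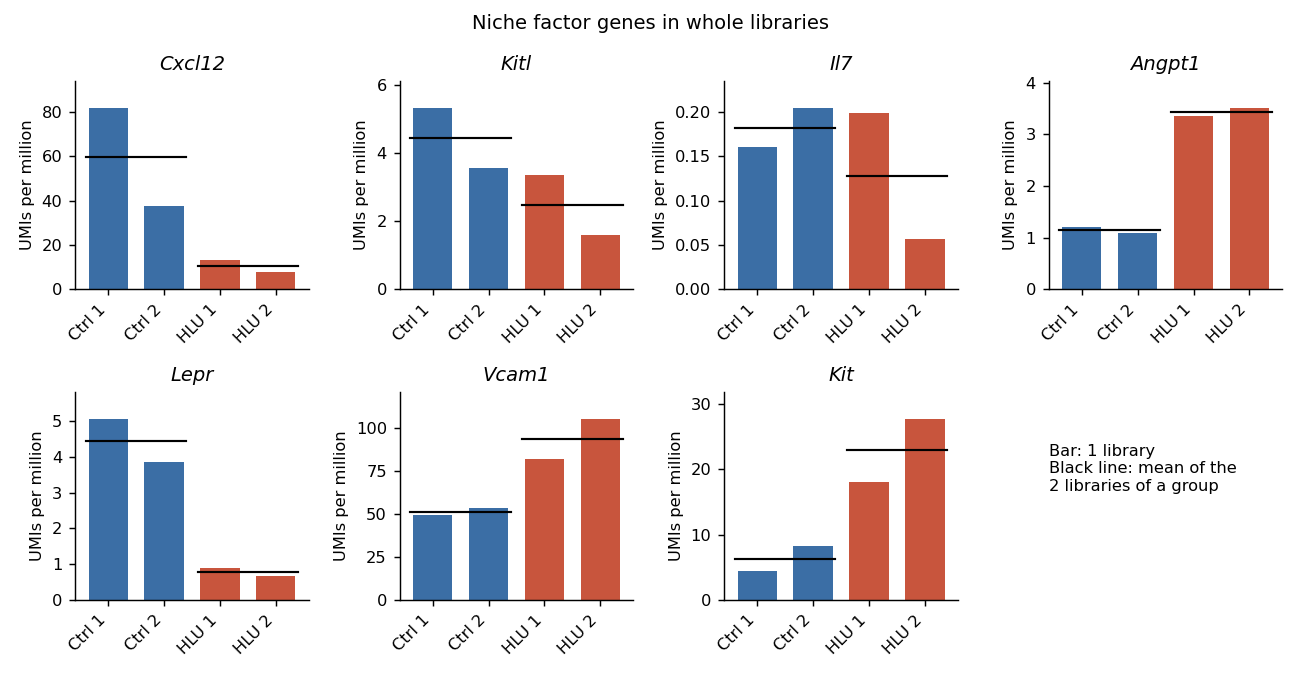
CPM of each of the 7 genes in the kept cells of each library; each bar is 1 library (Ctrl blue, HLU red) and the black line is the mean of the 2 libraries of a group. Cxcl12 and Lepr were lower in both HLU libraries than in either Ctrl library, and Kit, Angpt1 and Vcam1 were higher.

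Cxcl12 (chr6:117168535-117181367, plus strand, mm10) was counted with 4602 and 2209 UMIs under Ctrl, compared with 609 and 673 UMIs under HLU. In CPM, the scaling of UMI counts to a common total of all UMIs of the same cells, this was 81.8 and 37.6 in Ctrl against 13.4 and 7.68 in HLU, so that the lower Ctrl library still lay above both HLU libraries. On the log2 scale the change was -2.45 (SE 0.48, n = 2 per group), with an edgeR adjusted p of 0.0243. The call was lost without Ctrl replicate 1, where the log2 fold change was -1.78. That fit takes its spread from the HLU libraries alone. The lost call therefore does not show whether the fall depends on Ctrl replicate 1.

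Skeletal stroma held 96.2% and 92.1% of all Cxcl12 UMIs in Ctrl and 95.7% and 89.5% in HLU. Within it, the mesenchymal stromal cluster alone held 71.7%, 70.5%, 51.1% and 72.4% in Ctrl replicates 1 and 2 and HLU replicates 1 and 2. Among types with at least 20 cells in every library, this cluster had the highest mean Cxcl12 level, 510 CPM (SD 139, n = 4 libraries). Chondrocytes followed with 12.2 (SD 5.25), a gap larger than the spread over libraries. The tendon and connective tissue cluster, with 17 cells in HLU replicate 1, was not ranked. Its Cxcl12 level in that library, given further on, was above 510 CPM. Pericytes and smooth muscle cells, with 13 to 70 cells per library, had 120, 61.0, 32.6 and 252 CPM of Cxcl12. The Cxcl12 transcript thus came from few cells in each library, and these are taken up next.

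Cells with 10 or more Cxcl12 UMIs numbered 113 and 47 in Ctrl and 17 and 18 in HLU, and they held 73.9%, 63.4%, 85.9% and 76.1% of the Cxcl12 UMIs of their libraries. Most of them, 82 and 37 in Ctrl and 10 and 14 in HLU, lay in the mesenchymal stromal cluster. When the skeletal cells were clustered again on their own, stromal sub-cluster 4 took up 308 and 259 cells in Ctrl and 39 and 49 in HLU. It contained 2916, 1411, 311 and 466 Cxcl12 UMIs, which was 51.1% to 69.2% of the total in each library. Its level was 689 and 380 CPM in Ctrl and 652 and 613 in HLU, so that both HLU libraries lay between the Ctrl libraries. In sub-cluster 4 the log2 fold change was 0.07 (SE 0.35, edgeR adjusted p = 0.939), while the fall in whole libraries went with fewer cells of this sub-cluster. The SE leaves room for a change in either direction, and the smallest p that permuting 2 against 2 libraries allows is 0.333.

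Over all skeletal stroma, Cxcl12 stood at 122 and 66.9 CPM in Ctrl and at 300 and 192 in HLU. The groups did not overlap, with HLU higher, as for 27.8% of all genes tested, and the log2 fold change of 1.08 (SE 0.38) did not pass (edgeR adjusted p = 0.149). Without cluster 6 it was 1.49 with an adjusted p of 0.150. When skeletal cells were instead taken by their marker content, with at least 2% of UMIs from the skeletal lists, the log2 fold change was 0.12. The composition of the skeletal cells differed between the groups, and its part in these values was not tested. In the cluster named tendon and connective tissue, only 17 cells of HLU replicate 1 gave 255 Cxcl12 UMIs, or 2973 CPM. The 32 cells of HLU replicate 2 had 371 CPM. The chondrocyte, osteoblast and mesenchymal stromal markers held 0.901% and 2.14% of UMIs there in HLU, against 6.19% and 6.45% in Ctrl. In HLU replicate 1, 6 of the cells rich in Cxcl12 lay there. The tendon marker Thbs4 was not detected in any Cxcl12-rich cell of that library. Whether the name holds for these HLU cells was not tested.

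The sequence just before the Cxcl12 start site is shown with those of Kitl and Lepr, since the levels of these genes varied together across clusters and libraries. Over 97 sums of cells by cluster and library, Pearson's r of log2 levels was 0.834 between Cxcl12 and Kitl and 0.786 between Cxcl12 and Lepr, where sums of 1 library share its depth and free RNA. The 3 stretches were read from RefSeq promoter records on GRCm38.p6 (the mm10 build) and end 1 base before the first annotated start of the gene, on the plus strand, and capitals mark GC boxes (GGGCGG on either strand) and CCAAT boxes (CCAAT on either strand).
Cxcl12 chr6:117168285-117168534: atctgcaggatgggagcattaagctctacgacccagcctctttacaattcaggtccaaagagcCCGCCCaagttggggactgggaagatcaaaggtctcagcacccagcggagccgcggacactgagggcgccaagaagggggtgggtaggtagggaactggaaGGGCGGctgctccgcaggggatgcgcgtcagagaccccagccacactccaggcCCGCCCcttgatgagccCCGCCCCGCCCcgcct
Kitl chr10:100015571-100015629: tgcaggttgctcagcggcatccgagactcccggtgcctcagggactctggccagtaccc
Lepr chr4:101717157-101717403: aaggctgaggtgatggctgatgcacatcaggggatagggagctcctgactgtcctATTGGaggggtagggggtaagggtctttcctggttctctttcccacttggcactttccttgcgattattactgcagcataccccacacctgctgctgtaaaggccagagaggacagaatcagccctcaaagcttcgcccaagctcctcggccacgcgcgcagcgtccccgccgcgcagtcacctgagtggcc
The Cxcl12 stretch had a GC content of 64.4% and held 5 GC boxes, the last 2 of which share a base, where 32.7% of 32851 promoters cut to 250 bases held at least 1. The Lepr stretch held 1 CCAAT box and no GC box, and 33.6% of promoters cut to 247 bases held a CCAAT box. Neither motif was in the 59 bases of Kitl. None of the 3 stretches held TATAAA on either strand. A match describes these letters only.

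Transcripts of Cxcl12 in blood cells were few, and they fell in immature neutrophils. Immature neutrophils, which are not known to make Cxcl12, had 25 and 29 UMIs in 865 and 1178 Ctrl cells and 5 and 3 UMIs in 1846 and 1808 HLU cells. These were 1.62% and 2.12% of cells with a UMI in Ctrl and 0.271% and 0.166% in HLU, and after thinning every cell to 1000 UMIs 0.231%, 0.255%, 0% and 0%. In immature neutrophils the log2 fold change was -3.96 (SE 0.59, edgeR adjusted p = 0.0278), the only call among the members in the 8 blood cell types tested, in a comparison where 2.75% of 10820 genes passed and all of them were lower in HLU. This call was lost without putative doublets (edgeR adjusted p = 0.0609) and without integration (0.0816). It was also lost without either Ctrl library, where the fit takes its spread from the HLU libraries alone. Called beside it, among the pathway genes described further on, were Ackr3, Pdgfra, Foxc1, Prrx1, Cspg4, Nes, Cxcl14 and Adamts1. The skeletal marker lists together held 0.149% and 0.184% of UMIs in Ctrl immature neutrophils and 0.0106% and 0.00468% in HLU, and in whole libraries 3.65%, 3.10%, 0.0848% and 0.0670%. The part of free stromal RNA in the neutrophil counts was not tested. Mature neutrophils had -3.14 (adjusted p = 0.129) and monocytes -2.75 (adjusted p = 0.433). Erythroid cells had 0 Cxcl12 UMIs in 8, 13, 55 and 418 cells, and in the largest of these groups a count of 0 allows a share of up to 0.718% of cells with a UMI, a limit on detection at this depth and not on expression.

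The cells rich in Cxcl12 carried different transcripts beside it in the groups. The cells were picked by their Cxcl12 counts and are few in HLU, so the shares are a description without a test. Kitl was detected in 31.9% (exact 95% interval 23.4 to 41.3) and 19.1% (9.15 to 33.3) of these cells in Ctrl but in 100% (80.5 to 100) and 61.1% (35.7 to 82.7) in HLU. Lepr was detected in 3.54% and 8.51% in Ctrl and in 58.8% and 44.4% in HLU. Both genes were therefore found more often in the HLU cells, although the median depth of the cells was 13967 and 16392 UMIs in Ctrl and 9990 and 13518.5 in HLU.

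Some markers of marrow stromal cells lay in the same direction in the Cxcl12-rich cells and others did not. The adipokine gene Adipoq was detected in 5.31% and 4.26% of Ctrl cells and in 47.1% and 55.6% of HLU cells, and Lpl, the lipoprotein lipase, in 15.9%, 21.3%, 76.5% and 72.2%. Haptoglobin, Hp, was found in 18.6% and 42.6% in Ctrl but in 100% and 83.3% in HLU. The receptor gene Pdgfra, listed with Adipoq but not with Lpl or Hp, also served as a mesenchymal stromal marker. It lay the other way, with 79.6% and 82.98% of cells in Ctrl but 41.2% and 33.3% in HLU. Matrix genes did so too. Dcn, the proteoglycan decorin, was detected in all of these Ctrl cells at 15137 and 10142 CPM, but in 47.1% and 55.6% of the HLU cells at 1140 and 626 CPM. Of the 21 genes examined in these cells, Foxc1 at 27.8% to 82.4% of cells and Gas6 at 23.4% to 72.2% overlapped between the groups, as did the rare Il7. The collagen gene Col3a1 was found in 58.4% and 63.8% in Ctrl and in 11.8% and 0% in HLU. Acan and Thbs4, markers of cartilage and tendon, were not detected in the 17 and 18 HLU cells, counts that allow shares of cells with a UMI of up to 17.6% and 16.7%, again a limit on detection only.

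**Figure D2:**
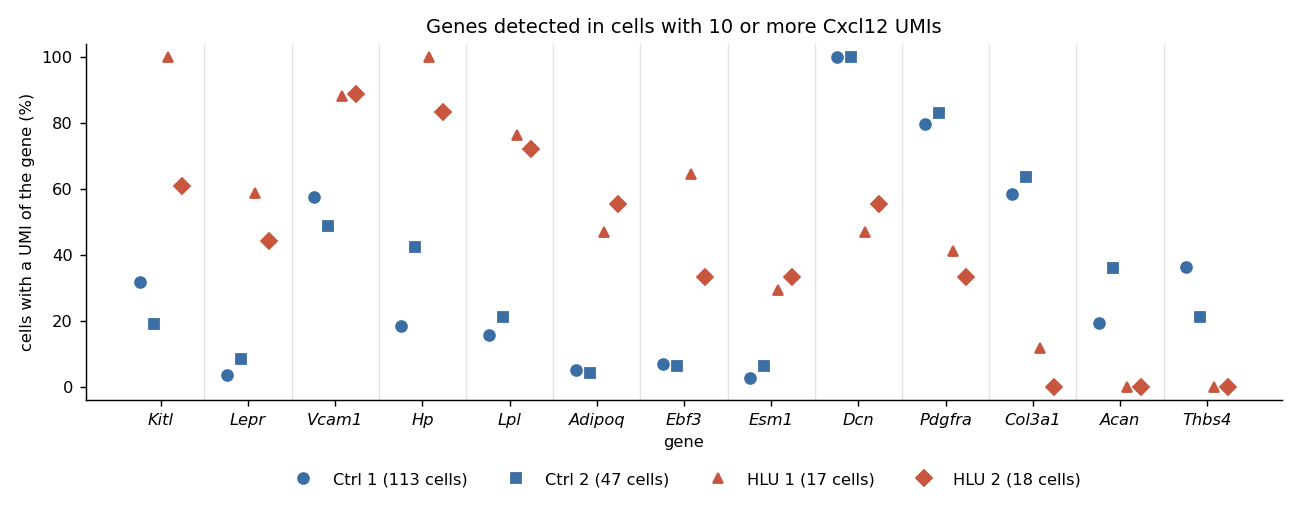
Share of cells with at least 1 UMI (vertical axis, percent) for 13 of the 21 genes examined, among cells with 10 or more Cxcl12 UMIs, with 1 point per library. From Kitl to Esm1 the HLU points (red) lay above the Ctrl points (blue) for every gene shown, and from Dcn to Thbs4 below them. Of the genes not shown, Foxc1, Gas6 and Il7 overlapped between the groups. Pdgfrb, Cxcl14 and Angpt1 were higher in HLU, and Prrx1 and Col1a1 lower.

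Kitl (chr10:100015630-100100416, plus strand) was rare, with 300 and 209 UMIs in Ctrl and 153 and 140 in HLU. The levels in whole libraries were 5.33 and 3.56 CPM in Ctrl and 3.37 and 1.60 in HLU, with a log2 fold change of -0.80 (SE 0.46, edgeR adjusted p = 0.263). Although the HLU libraries lay below the Ctrl libraries, the difference did not pass.

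In skeletal stroma the direction was opposite. Kitl stood at 6.87 and 4.57 CPM in Ctrl and at 67.4 and 28.7 in HLU, and all HLU values lay far above the Ctrl values. This was a log2 fold change of 2.74 (SE 0.45, edgeR adjusted p = 0.0334), and Kitl was one of 2 members called among the 6 tested, where 7.09% of 13563 genes passed. The call was lost without cluster 6, where the log2 fold change was 3.13 (SE 0.52, adjusted p = 0.0827) and no gene passed among 13492, although 2928 had an unadjusted p under 0.05. It was also lost when cells were taken by their marker content (2.31, adjusted p = 0.151), at resolution 0.5 (3.11, adjusted p = 0.0599), at resolution 2 (3.09, adjusted p = 0.0579) and without integration (3.27, adjusted p = 0.0785), thus under every other definition of the skeletal cells that was run. The log2 fold change lay between 2.31 and 3.27 in these alternatives.

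In the mesenchymal stromal cluster, which held 48.8% to 64.7% of Kitl UMIs in each library, the level was 29.5 and 21.1 CPM in Ctrl and 208 and 83.7 in HLU. In stromal sub-cluster 4 there were 158 and 94 Kitl UMIs in Ctrl and 99 and 71 in HLU, from a much smaller number of HLU cells. There the log2 fold change was 2.05 (SE 0.40, edgeR adjusted p = 0.0843), where 0.584% of 9926 genes passed and no member did. The tendon and connective tissue cluster held another 45, 20, 28 and 9 Kitl UMIs and the chondrocyte clusters 30, 17, 4 and 1. Outside the skeletal stroma, pericytes and smooth muscle cells held 12.4% to 21.4% of Kitl UMIs in each library, at levels of 92.9 and 83.9 CPM in Ctrl and 207 and 154 in HLU. The 13 and 18 HLU pericytes were too few to be tested. Resident macrophages, separated at a finer clustering, added 15 Kitl UMIs from 61 cells in HLU replicate 2, where monocytes and macrophages together held 13.6% of Kitl UMIs. No Kitl UMI was seen in dendritic, erythroid, T and NK, or basophil and mast cells of any library.

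**Figure D3:**
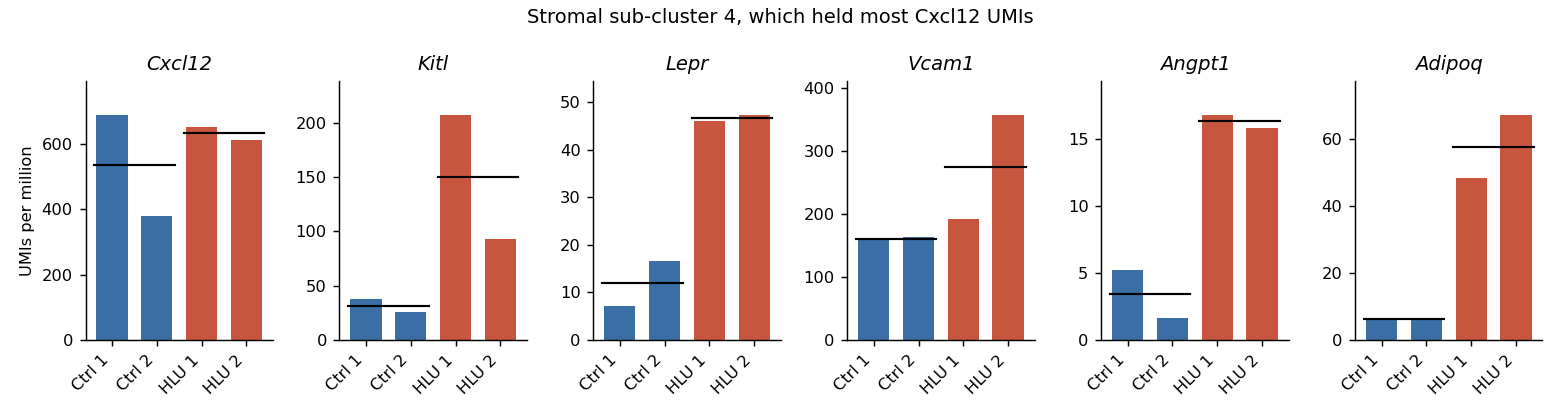
CPM in stromal sub-cluster 4, which held most Cxcl12 UMIs in each library, for 5 of the niche genes and Adipoq; each bar is 1 library (Ctrl blue, HLU red) and the black line is the mean of a group. Cxcl12 was at 689 and 380 in Ctrl and 652 and 613 in HLU, whereas Kitl, Lepr, Angpt1 and Adipoq were higher in both HLU libraries.

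The cells of sub-cluster 4 differed between the groups in more than the niche genes. Adipoq, a marker of marrow stromal cells, stood at 6.38 and 6.19 CPM in Ctrl and at 48.2 and 67.1 in HLU, and it rose with a log2 fold change of 3.03 (edgeR adjusted p = 0.0379). The 8 marrow stromal markers together held 0.0636% and 0.0767% of UMIs in Ctrl and 0.369% and 0.245% in HLU, with none of them at 0. The 10 mesenchymal stromal markers held 2.27% and 2.07% in Ctrl and 0.590% and 0.405% in HLU, and the 10 chondrocyte markers 0.303%, 0.334%, 0.0105% and 0.0205%. The mature neutrophil markers, none at 0, held 0.268% and 0.306% in Ctrl but 0.900% and 1.27% in HLU. What part this make-up had in the Kitl, Lepr and Angpt1 levels was not tested.

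Lepr (chr4:101717404-101815352, plus strand), the leptin receptor, was counted with 285 and 226 UMIs in Ctrl and 40 and 59 in HLU. Its level in whole libraries was 5.06 and 3.85 CPM in Ctrl and 0.882 and 0.673 in HLU, without overlap. The log2 fold change was -2.45 (SE 0.38, edgeR adjusted p = 0.0128), and it was -2.24 without Ctrl replicate 1 and -2.65 without Ctrl replicate 2. The call was lost without either one of them, with the same limit on these fits as for Cxcl12.

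The Lepr transcript was almost confined to skeletal stroma, which held 95.8% and 93.8% of its UMIs in Ctrl and 92.5% and 91.5% in HLU. The place within the stroma differed between the groups. In Ctrl the tendon and connective tissue cluster held 59.3% and 36.3% of Lepr UMIs and the mesenchymal stromal cluster 15.1% and 34.1%, while in HLU the connective tissue cluster held 12 of 40 and 3 of 59 Lepr UMIs and the mesenchymal stromal cluster 55.0% and 64.4%. The level in mesenchymal stromal cells was 7.25 and 15.96 CPM in Ctrl and 46.2 and 39.8 in HLU. Across skeletal stroma Lepr stood at 7.50 and 6.97 CPM in Ctrl and at 19.0 and 17.2 in HLU, a log2 fold change of 1.03 (SE 0.24, edgeR adjusted p = 0.0657), and 1.38 without cluster 6 (adjusted p = 0.0832). Among B cells, T and NK cells, basophils and mast cells, dendritic cells, erythroid cells and neutrophil progenitors no library had a Lepr UMI.

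Il7 (chr3:7569994-7613760, minus strand) was close to the limit of detection, with 9 and 12 UMIs in Ctrl and 9 and 5 in HLU. The groups overlapped at 0.160 and 0.204 CPM in Ctrl and 0.198 and 0.0571 in HLU, and the log2 fold change was -0.56 (SE 0.75, edgeR adjusted p = 0.624). Of these UMIs, 7 and 10 in Ctrl and 4 and 1 in HLU lay in skeletal stroma, and 1, 2, 4 and 2 in monocytes. At this depth a difference was not detectable, and Il7 had too few UMIs for the test in skeletal stroma and in every blood cell type. Il7 overlaps the antisense gene Gm16685, which had 711 UMIs in the same cells, and the counting of strand is not given in the sources used here.

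**Figure D4:**
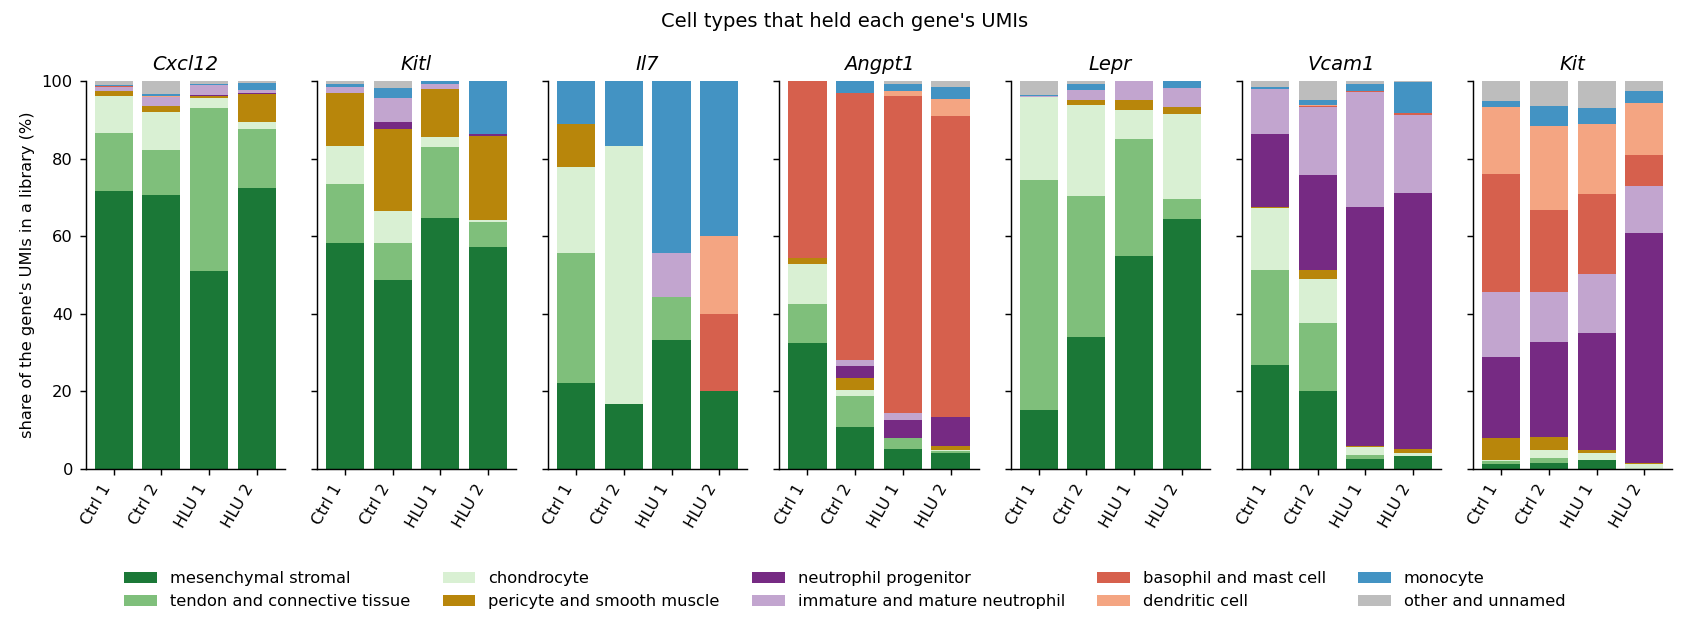
Share of the UMIs of each gene (vertical axis, percent of the UMIs of that gene in a library) by the cell type that held them, with 1 stacked bar per library. Skeletal cells (green) held most Cxcl12 and Lepr UMIs in every library, whereas the Vcam1 UMIs lay mostly in skeletal cells in Ctrl replicate 1 and mostly in neutrophil progenitors in both HLU libraries.

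Angpt1 (chr15:42424723-42676977, minus strand) rose in whole libraries, from 68 and 64 UMIs in Ctrl to 152 and 307 in HLU. The levels were 1.21 and 1.09 CPM in Ctrl and 3.35 and 3.50 in HLU, without overlap. This gave a log2 fold change of 1.65 (SE 0.35, edgeR adjusted p = 0.0290), with 1.73 (adjusted p = 0.270) without Ctrl replicate 1 and 1.57 (adjusted p = 0.242) without Ctrl replicate 2.

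The cluster named from basophil and mast cell markers held 45.6% and 68.8% of Angpt1 UMIs in Ctrl and 81.6% and 77.5% in HLU, with 88.3, 75.7, 132 and 198 CPM. A finer clustering divided it into a megakaryocyte cluster and a basophil and mast cell cluster. The top genes of the former were not only Pf4, Itga2b and Clec1b but also Ctla2a, Adgrg1, Pdzk1ip1 and Muc13. Its cells held 1 and 4 Tek UMIs in Ctrl and 4 and 12 in HLU. Whether they are megakaryocytes or progenitors was not tested. The 37, 28, 40 and 45 megakaryocyte-like cells had 28 and 41 Angpt1 UMIs in Ctrl and 121 and 200 in HLU, whereas the 11, 24, 45 and 81 basophil and mast cells had 3, 3, 3 and 38. Angpt1 was thus detected in 29.7% and 46.4% of the megakaryocyte-like cells in Ctrl and in 80.0% and 88.9% in HLU. Their median depths were 5242 and 14192 UMIs in Ctrl and 11586.5 and 13852 in HLU, which bears on these shares in Ctrl replicate 1.

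Angpt1 in the megakaryocyte-like cells was at a level of 97.6 and 99.4 CPM in Ctrl and at 200 and 294 in HLU. The groups did not overlap, with HLU higher for 20.2% of all genes tested in these cells. Its log2 fold change of 1.19 (SE 0.37) did not pass (edgeR adjusted p = 0.443), in a comparison where 0.569% of 6329 genes passed and all of them were lower in HLU. In the joined cluster it was 0.84 (SE 0.35, adjusted p = 0.549), where 0.605% of 7607 genes passed. The antisense gene Gm17473, which overlaps Angpt1, had 57 UMIs in all libraries together.

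Stromal Angpt1 was low in number. Skeletal stroma held 36 and 13 UMIs in Ctrl and 12 and 15 in HLU, from far fewer HLU cells, or 0.989 and 0.427 CPM against 6.17 and 4.79. There Angpt1 had a log2 fold change of 2.62 (SE 0.57, edgeR adjusted p = 0.0562), and 3.03 without cluster 6 (adjusted p = 0.0908). In sub-cluster 4 it was 2.05 (SE 0.62, adjusted p = 0.176) from 22, 6, 8 and 12 UMIs.

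Vcam1 (chr3:116109949-116129688, minus strand) was the most abundant of the 7 genes, with 2771 and 3130 UMIs in Ctrl and 3718 and 9230 in HLU. Whole libraries had 49.2 and 53.3 CPM in Ctrl and 82.0 and 105 in HLU. The groups did not overlap, but the log2 fold change of 0.95 (SE 0.29) did not pass (edgeR adjusted p = 0.0709). It passed with DESeq2 on the same sums (0.99, adjusted p = 0.0286), as did 4674 of 15385 genes. Over all alternatives the log2 fold change of Vcam1 lay between 0.68 and 1.26.

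The cells that held Vcam1 differed between the groups. Skeletal stroma held 67.3% and 48.9% of Vcam1 UMIs in Ctrl but 5.59% and 4.01% in HLU, and neutrophil progenitors held 18.8% and 24.4% in Ctrl but 61.6% and 66.1% in HLU. Neutrophil progenitors, marked by the granule protease genes Elane, Prtn3 and Ctsg, numbered 131 and 156 cells in Ctrl and 291 and 562 in HLU. Their Vcam1 level was 314 and 301 CPM in Ctrl and 597 and 433 in HLU, the highest of the cell types compared, with a mean of 411 (SD 137, n = 4 libraries) against 191 (SD 87.0) in mesenchymal stromal cells.

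In neutrophil progenitors Vcam1 was detected in 59.5% and 68.6% of Ctrl cells and 68.4% and 84.0% of HLU cells, or in 21.4%, 20.5%, 34.7% and 31.3% after thinning to 1000 UMIs. The log2 fold change was 0.53 (SE 0.35, edgeR adjusted p = 0.835), where 0.623% of 9470 genes passed. Immature neutrophils had 42.8 and 53.1 CPM in Ctrl and 65.7 and 76.3 in HLU (0.54, SE 0.30, adjusted p = 0.571). Mature neutrophils had far less, at 4.72 and 6.38 in Ctrl and 4.64 and 2.91 in HLU (-0.47, SE 0.40, adjusted p = 0.687), where 2.67% of 9431 genes passed. B cells, with 2.65 to 5.14 CPM of Vcam1 and a UMI in 0.654% to 1.86% of cells, gave the level in cells not known for this gene.

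Monocytes had 4.12 and 10.9 CPM of Vcam1 in Ctrl and 12.4 and 34.5 in HLU (1.63, SE 0.66, edgeR adjusted p = 0.762), in a comparison where 0.295% of 10507 genes passed. Of the 742 Vcam1 UMIs of HLU replicate 2 monocytes and macrophages, most came from few cells: the 61 resident macrophages that a finer clustering set apart carried 626 Vcam1 UMIs, or 1957 CPM, and Vcam1 was detected in 91.8% of them. The other libraries had 7, 14 and 1 such macrophages with 1, 25 and 1 Vcam1 UMIs. Vcam1 is known on macrophages of the marrow, and the value of the monocyte cluster in HLU rested on this one library.

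In skeletal stroma Vcam1 stood at 51.2 and 50.3 CPM in Ctrl and 107 and 118 in HLU. Its log2 fold change was 0.86 (SE 0.21, edgeR adjusted p = 0.0756), and 0.89 without cluster 6 (adjusted p = 0.128). When the cells were taken by their marker content it was 0.08, with the same limit as for Cxcl12. In sub-cluster 4 it was 0.61 (SE 0.38, adjusted p = 0.489) from 159 and 164 CPM in Ctrl and 193 and 358 in HLU. With the main settings no test of Vcam1 passed in any of these cell types.

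Kit (chr5:75574916-75656722, plus strand), the receptor of Kitl, rose in whole libraries from 250 and 481 UMIs in Ctrl to 820 and 2424 in HLU. This was 4.44 and 8.19 CPM in Ctrl and 18.1 and 27.7 in HLU. Kit had a log2 fold change of 1.95 (SE 0.44, edgeR adjusted p = 0.0327), with adjusted p-values of 0.259 without Ctrl replicate 1 and 0.0842 without Ctrl replicate 2.

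The Kit UMIs lay mostly in a few blood cell types. Neutrophil progenitors held 20.8% and 24.3% of them in Ctrl and 30.2% and 59.2% in HLU, basophils and mast cells with megakaryocytes 30.4%, 21.2%, 20.6% and 8.09%, and dendritic cells 17.2%, 21.6%, 18.0% and 13.3%. The mean level over the 4 libraries was 191 CPM (SD 79.2) in dendritic cells and 184 (SD 23.0) in the joined basophil, mast cell and megakaryocyte cluster, which do not differ beyond their spread. At the finer clustering 75, 98, 142 and 175 Kit UMIs of the joined cluster lay in the megakaryocyte-like cells, and the basophil and mast cells proper had 1, 4, 27 and 21 UMIs, or 15.6, 23.7, 81.5 and 40.2 CPM. Neutrophil progenitors followed with 61.0 (SD 30.5) and T and NK cells with 44.98 (SD 16.2), again within the spread of each other.

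Kit in neutrophil progenitors was at 31.3 and 46.1 CPM in Ctrl and at 64.7 and 102 in HLU, without overlap, with HLU higher for 20% of all genes tested in these cells. It was detected in 27.5% and 40.4% of Ctrl cells and in 43.0% and 66.7% of HLU cells, whose median depths were 12651 and 16034 UMIs in Ctrl and 12919 and 25414 in HLU. After thinning to 1000 UMIs the shares were 1.53%, 5.13%, 7.22% and 8.54%. The log2 fold change was 0.87 (SE 0.35, edgeR adjusted p = 0.835).

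Within the other cell types that carry Kit no test passed. In the megakaryocyte-like cells Kit was at 261 and 238 CPM in Ctrl and 235 and 257 in HLU (-0.16, SE 0.32, edgeR adjusted p = 0.913). T and NK cells had 40.5, 31.8, 68.6 and 39.1 (0.51, SE 0.39, adjusted p = 0.882), where 0.506% of 6131 genes passed, and B cells -0.25 (adjusted p = 0.984), where 0.82% of 8905 did. The joined basophil and mast cell cluster had 217, 175, 181 and 163 CPM (-0.36, SE 0.31, adjusted p = 0.762). Dendritic cells had 100, 186, 185 and 294 (0.61, SE 0.43, adjusted p = 0.914). No gene passed in dendritic cells with edgeR among 6927, 304 had an unadjusted p under 0.05, and DESeq2 called 36. Most of their Kit came from a finer cluster of 13, 24, 23 and 70 cells with 23, 72, 92 and 235 Kit UMIs.

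**Figure D5:**
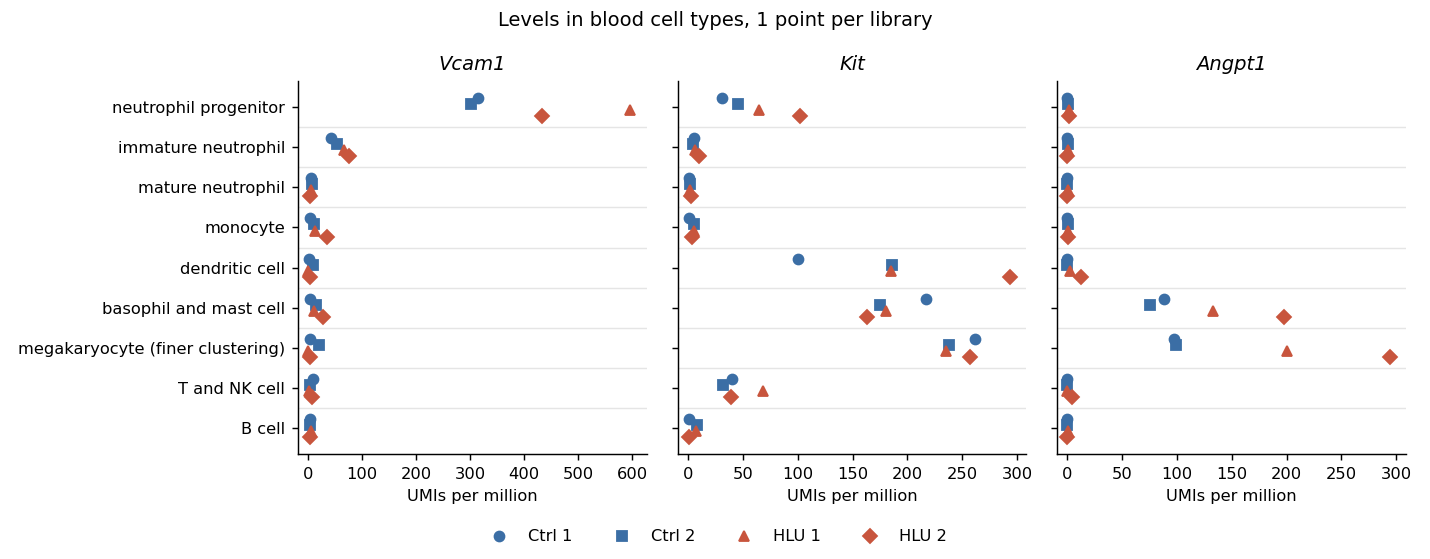
CPM of Vcam1, Kit and Angpt1 (horizontal axes) in blood cell types, with 1 point per library (Ctrl blue, HLU red); the megakaryocyte row comes from a finer clustering and its cells are also part of the basophil and mast cell row. Among the types shown, Vcam1 was highest in neutrophil progenitors and Angpt1 in megakaryocyte-like cells. Kit was highest in dendritic and megakaryocyte-like cells, and the latter also carry most Kit of the basophil and mast cell row. Resident macrophages of the finer clustering are not shown, and their Vcam1 level in HLU replicate 2 was above that of neutrophil progenitors.

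Kit also appeared among cells named as skeletal stroma in HLU. There were 6 and 24 Kit UMIs in Ctrl and 33 and 31 in HLU, a log2 fold change of 4.51 (SE 0.76, edgeR adjusted p = 0.0347). Without cluster 6 the HLU counts were 19 and 1, and the log2 fold change of 3.48 did not pass (adjusted p = 0.247). Nor did it pass at resolution 0.5 (adjusted p = 0.232), at resolution 2 (0.162), without integration (0.202), without putative doublets (0.0600) or with cells taken by their marker content (0.280). The granule gene Elane rose in the same skeletal sums, with 240 and 711 UMIs in Ctrl and 434 and 502 in HLU (3.37, adjusted p = 0.0436). In HLU replicate 1, 18 Kit UMIs lay in 6 of the 22 cells of sub-cluster 4 with a Cxcl12 UMI. Such cells held 0 Kit UMIs in HLU replicate 2 and 3 and 7 in Ctrl. The part of blood cells and blood RNA in these Kit counts was not tested. Pericytes and smooth muscle cells had 14 and 16 Kit UMIs in Ctrl and 7 and 7 in HLU.

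The receptors of the niche factors, among 46 other genes of the pathway, moved in both directions in whole libraries, where 3 of 8 rose and 1 fell. Itga4, the integrin that binds Vcam1, rose by 2.21 on the log2 scale (edgeR adjusted p = 0.0203), and the subunits of the Il7 receptor, Il7r and Il2rg, by 1.18 (adjusted p = 0.0491) and 1.74 (adjusted p = 0.0470). Ackr3, which takes up Cxcl12 without signalling through G proteins, had 15191 and 12708 UMIs in Ctrl and 344 and 174 in HLU (-5.64, adjusted p = 0.00787). Cxcr4, the signalling receptor of Cxcl12, had 1988 and 3955 UMIs in Ctrl but 9131 and 1567 in HLU and did not pass (1.11, adjusted p = 0.474). Among all genes 932 were called higher with 4 libraries, and nearly all of these calls were lost when either Ctrl library was left out. The fit then takes its spread from the HLU libraries alone. The lost calls therefore do not show whether the rises themselves depend on the Ctrl libraries. The median of the 8 receptors was 0.999 against 0.04 for all genes tested.

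Of 18 other niche ligands, 7 fell in whole libraries and none rose, with a median of -1.005. They included Spp1 (-2.83), Cxcl14 (-2.26), Bmp4 (-4.31), Igf1 (-2.35), Il34 (-3.33) and Ptn (-6.17). Of 12 regulators and markers of marrow stromal cells, 7 fell and 1 rose, with a median of -2.99. Foxc1 (-4.55), Pdgfra (-5.12), Cspg4 (-4.27), Prrx1 (-3.82) and Gas6 (-3.85) fell, while Bst1, an ectoenzyme first known from marrow stromal lines, rose by 1.67. Bst1 was also among the top genes of a mature neutrophil cluster at the finer clustering. Of 8 proteins that cut or release niche factors, Adamts1 fell (-2.98) and the neutrophil proteases Elane, Mmp9 and Ctsg did not pass. The fall of 16 of 46 genes compares with 17.1% of all genes lower in HLU, and the rise of 4 with 6.06% higher.

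Within skeletal stroma 42 of the 46 genes could be tested, 10 rose and 1 fell, beside 526 higher and 435 lower of all 13563 genes tested. Ackr3 fell by 2.88 (edgeR adjusted p = 0.0195) with 14463 and 11571 UMIs in Ctrl and 157 and 157 in HLU. Among those that rose were the marrow stromal markers Adipoq (3.95, adjusted p = 0.0178), Ebf3 (1.88, adjusted p = 0.0477) and Esm1 (4.93, adjusted p = 0.0331), and also the blood cell genes Elane, Itga4, Il7r and Il2rg. The other 3 were Bst1, Cxcl14 and Il6. Of the 12 regulators and markers of marrow stromal cells, 4 rose and 0 fell. Their median log2 fold change was nonetheless -0.30, against -0.016 for all genes tested. None of the 11 passed without cluster 6, since no gene did. In sub-cluster 4, Adipoq was the one call among 33 tested.

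The genes whose levels were most like each member over the same 97 sums are given by Pearson's r of log2 levels, as a description. Cxcl12 lay closest to Fgf7 (0.935), Antxr1, Ptx3, Serping1 and Loxl1, and Kitl to Kcne4 (0.975), S1pr3, Lamb1, Gprc5b and Fstl1. Lepr lay closest to Prickle2 (0.895), Itga11, Mkx and Ptprd, and Il7 to Vdr (0.814), Aox1, Cdh2, Ebf3 and Mid1. Angpt1 lay closest to Gata2 (0.946), Csrp3, Cyp11a1, Ms4a2 and Treml1, and Kit to P2ry14 (0.844), Matk, Ctla2a, Sh2d5 and Gria3. In these sums basophils, mast cells and megakaryocytes form a joined cluster, so r does not tell genes of these cell types apart. Vcam1 had no close partner, with Ldhb (0.672), Rgcc, Elane, Pnp and Samd5 as its nearest.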

How the data were processed

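Raw UMI counts per gene and barcode of 2 Ctrl and 2 HLU libraries were used as deposited by the authors, who made them with Cell Ranger 6.0.0 on mm10 from 10x 3′ libraries and, per the labels, used Seurat 4.1.0 downstream. The methods of the study give n = 2 per group, and the labels name a first and a second replicate without a number of mice. Where 2 libraries are not from separate mice, p-values measure technical spread only. The Cell Ranger settings for strand are not given in the sources used here. The 7 genes and all lists were chosen with earlier results of these data known.

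Barcodes with 1000 to 40000 UMIs and at most 10% mitochondrial UMIs were kept, with median depths of 3799 to 6294.5 UMIs per library. Putative doublets were kept and were left out as an alternative. Cells were clustered with Seurat 5.3.0 (2000 variable genes without the 7 members, 50 components, resolution 1), and clusters were named by fixed markers. Levels are UMI counts scaled to the total UMIs of the same cells (CPM), with a floor of 3 counts where a count is 0. Exact binomial intervals cover counting error only. The study tested cells with the Wilcoxon test. Since cells are not replicates, counts were here summed per library and cell type, and types with at least 20 cells in every library were tested with edgeR 4.0.16 (quasi-likelihood, R 4.3.3, Benjamini-Hochberg adjustment over all genes of a comparison, called at an adjusted p under 0.05). DESeq2 1.42.0, another filter on low counts, a replicate block, leaving out each library, other clusterings and other cell filters were alternatives. On simulated counts with 200 genes changed by a log2 fold of 2, edgeR recovered 191 in whole libraries, 172 in skeletal stroma and 175 in neutrophil progenitors. False calls numbered 6, 9 and 9. The simulation gave every gene the same dispersion of 0.05, and smaller changes were not simulated, so it does not give the power for the members. Named were all 7 members, the called pathway genes (at most the 6 with most UMIs per list), and the 5 genes most like each member, of which 1 is not reported here. Other genes were named after their values were seen.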

Additional observations from a re-analysis of the deposited data

Results flagged for a closer look

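Vcam1 values lay in opposite directions in blood cell types without overlap between the groups, as 4185 of 9431 genes did not overlap in mature neutrophils and 4150 of 10507 in monocytes. None of its changes passed. The log2 fold change was -0.47 in mature neutrophils, against 0.54 in immature neutrophils, 0.53 in neutrophil progenitors, 1.63 in monocytes and 0.86 in skeletal stroma. Kit had -0.36 in the basophil and mast cell cluster, against 0.51 in T and NK cells, 0.69 in immature neutrophils, 0.87 in neutrophil progenitors and 4.51 in skeletal stroma. Cxcl12 had 1.08 in skeletal stroma, against -3.96 in immature neutrophils, -3.14 in mature neutrophils and -2.75 in monocytes. For Vcam1 and Cxcl12 both HLU libraries lay on one side in one cell type and on the other side in another. For Kit this held only after edgeR's scaling of library sizes. On the CPM given above, Kit overlapped between the groups in the basophil and mast cell cluster and in T and NK cells. The difference between cell types was not tested. Most of these single changes did not pass their own test, those of Kit in skeletal stroma and Cxcl12 in immature neutrophils excepted.

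Barcodes under 1000 UMIs, which no comparison used, held Vcam1 at 113 and 194 CPM in HLU, above the 67.0 and 52.4 of the Ctrl libraries. They rested on 77 and 68 Vcam1 UMIs in Ctrl and 156 and 38 in HLU.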

How the results depend on the processing

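Calls in whole libraries numbered 3568 and ranged from 848 to 7726 when 1 library was left out, which leaves a group with 1 sample that is assumed to vary like the other group. In skeletal stroma the 961 calls became 1748 with DESeq2, 2835 without the filter on low counts, 471 without putative doublets, 111 at resolution 0.5, 179 at resolution 2, 0 without integration (2830 at an unadjusted p under 0.05), 1 with cells taken by the skeletal lists and 0 without cluster 6, the last an alternative added after seeing the data, and 536 to 3211 with 1 library left out. Replicate numbers did not pair the samples, as same-numbered libraries had correlated deviations of only -0.124 in skeletal stroma and 0.150 in neutrophil progenitors. With a replicate block there were 590 calls in skeletal stroma, and with the crossed replicate block, added after seeing the data, 1605. The tests of sub-cluster 4 and of megakaryocyte-like cells were also added after seeing the data. Sub-cluster 4 had 58 calls, 377 with DESeq2, 1201 without the filter, 38 without putative doublets and 219 to 607 with 1 library left out. Megakaryocyte-like cells had 36 calls, 64 with DESeq2, 288 without the filter, 176 with the replicate block and 86 to 553 with 1 library left out. Over the 8 blood cell types 1 of 17 member changes tested was called, among 790 calls over all genes and types. With DESeq2 it was 2 of 17 among 1447 calls, and without the filter 4 of 44 among 4097. With the replicate block it was 2 of 17 among 1486, and without doublets 0 of 15 among 517. At resolution 0.5 it was 3 of 19 among 2169, and at resolution 2, with 7 cell types, 3 of 15 among 1961. Without integration it was 0 of 15 among 352. Fits with 1 library left out leave a group with 1 sample and are not counted here.

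Of 407 alternative values of 37 member changes, 340 kept their direction and side of the threshold, 22 lost the call, 34 gained it and 11 reversed. Most of the 37 changes were not called, and staying uncalled counts as kept. The losses can fall only on called changes. They numbered 7 for the 4 called in whole libraries, 11 for the 2 in skeletal stroma and 4 for the 1 in immature neutrophils. Il7 in whole libraries was -1.43 to 0.12 with 1 library left out, the last without HLU replicate 2. Kit in B cells was -2.06 to 1.60 with 1 library left out (1.60 without Ctrl replicate 2, 0.33 without HLU replicate 2), 0.58 at resolution 0.5 and 0.52 at resolution 2. Kit in monocytes was -0.34 to 1.54 with 1 library left out (-0.34 without Ctrl replicate 1, -0.10 without HLU replicate 1), -0.023 without doublets and -0.10 at resolution 2. Cxcl12 in sub-cluster 4 was -0.016 without the filter and -0.28 to 0.48 with 1 library left out, the former without Ctrl replicate 2. The cause was not tested. Basophil and mast cells gave no value at resolution 2, with under 20 cells in a library. Thinning to 1000 UMIs moved 13 of 14 shares of cells with a UMI, so depth limits these shares.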

Other observations

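Within skeletal stroma, cells of a second sub-cluster, number 9, also carried Cxcl12. Its 329 and 111 cells in Ctrl and 9 and 18 in HLU had 529 and 210 Cxcl12 UMIs in Ctrl and 255 and 95 in HLU, or 341 and 273 CPM against 5841 and 1304. Lepr there was at 70.8 and 58.5 CPM in Ctrl and 275 and 41.2 in HLU, where the groups overlap.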
